A study of Mus musculus with 4 samples.

Results

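The genes described here are 47 genes of DNA replication and nucleotide supply, read from 4 dual-color microarrays of the mouse colon. Every array probe whose gene name is 1 of the 47 was taken, whatever its values. This gave 71 probes, and all 47 genes had at least 1. The list of genes itself was chosen with earlier results of these data known. The array names 27339 genes in all, of which 15376 were measured in the Rspo3 KO experiment and 15886 in the Axin2 experiment, and all 47 replication genes were among both. A gene counted as measured where each array of the experiment read its brightest probe above background in 1 or both channels, and that probe stands for the gene.

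In Axin2+ epithelial cells, 44 of the 47 genes had a higher signal than in Axin2- cells on both arrays, and 23 were past 1.5-fold, led by Mcm4, Pola1, Mcm6 and Uhrf1. In Rspo3 KO colon, 27 were lower than in control colon in both pairs of mice and 12 were past 1.5-fold, with Prim2 lowest. The median log2 ratio of the 47 genes was -0.61 in the first KO pair and -0.17 in the second. The dyes were exchanged between the pairs, so a dye effect and a difference between pairs cannot be told apart. With each array centred on its median in place of the loess normalisation, these medians were 0.10 and -0.78. Prim2, which encodes the large subunit of the primase, was the 1 member that passed the test in the KO, and it fell 6.19-fold. It did not pass with all spots in the background fit (limma adjusted p = 0.903), with median centring or without a filter on dim probes.

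The mice were on a C57BL/6 background. Rspo3 KO mice (Myh11CreErt2/Rspo3 fl/fl) lost Rspo3, a secreted enhancer of Wnt signaling, in Myh11-expressing myofibroblasts of the stroma and not in the epithelium. Control mice (labelled Rspo3++) were Myh11CreErt2/Rspo3 +/+ littermates, so that both genotypes carried the Cre. All received tamoxifen at 4 mg per 25 g body weight, either once or on consecutive days, and the mice were males of 6 to 8 weeks. Colon RNA was taken 2 weeks after tamoxifen, with 1 mouse per channel and 2 arrays, which gives 2 biological pairs. Axin2+ and Axin2- cells were sorted as tdTomato-positive and tdTomato-negative epithelial cells from Axin2CreErt2/Rosa26-tdTomato mice 24 h after tamoxifen, so that the label marks cells that expressed Axin2 at that time and any early progeny. Cells of 3 mice were pooled, and 1 pair of pools was read on both arrays with the dyes exchanged, so that this experiment has 1 replicate and allows no test.

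DNA is copied once per cell cycle, in S phase. The origin recognition complex, Cdc6 and Cdt1 load the MCM helicase onto chromatin in G1, Cdc45 and the GINS complex turn the helicase on, and primase with polymerase alpha, polymerases delta and epsilon, the PCNA clamp and its loader, single-strand binding protein, flap endonuclease and ligase then make and join the new strands. In the colon, dividing cells lie in the lower part of the crypt, where Wnt signals are strongest, while the surface cells have left the cell cycle. Many replication genes are transcribed at the entry into S phase through E2F factors.

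Promoter sequence was not used in choosing the members. RefSeq promoters (GRCm38.p6, 250 bases before to 50 after the transcript start) were given for 39 of the 47 genes, while Gmnn, Mcm4, Gins1, Gins2, Gins4, Prim2, Pole and Rfc2 were not in the table. The promoters were searched on both strands for the E2F-type words TTTCCCGC, TTTCGCGC, TTTGCCGC and TTTGGCGC. At least 1 match was held by 17 of the 39 genes (43.6%), against 2.60% of the 27025 genes with a promoter in the table. Counted by promoter, 17 of the members' 50 (34%) held a match, against 2.26% of all 32851. Matches were found for 5 of 6 genes of the MCM class (Mcm3, Mcm5, Mcm6, Mcm7 and Mcmbp), for Cdc6 and Cdt1, for Uhrf1 and Dnmt1, and for Pola1, Lig1, Pold1, Pole2, Rfc3, Gins3, Orc1 and Orc3, but for 0 of 5 nucleotide supply genes and 0 of 2 single-strand binding genes. The pentamer CCAAT was present for 24 of the 39 genes (61.5%), against 41.1% of all genes. Counted by promoter it was in 28 of 50 (56%), against 37.4% of all promoters. A match is a description of the letters and does not show that a factor binds there.

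The 250 bases before the start are printed for 6 members, 5′ to 3′ on the strand of the gene, with E2F-type matches in capitals. Mcm6 (chr1:128359706-128359955, minus strand, 3 matches) and Mcm5 (chr8:75109259-75109508, plus strand, 2 matches) show matches on opposite strands that overlap in a palindrome-like stretch, and Pola1 (chrX:93632156-93632405, minus strand, 1 match) is a further member with a high ratio in Axin2+ cells. Mcmbp (chr7:128740430-128740679, minus strand, 1 match) and Orc3 (chr4:34614943-34615192, minus strand, 1 match) hold a match but had low ratios in Axin2+ cells. Prim1 (chr10:128014965-128015214, plus strand) holds no match in this window and was past 1.5-fold in both experiments.
Mcm6: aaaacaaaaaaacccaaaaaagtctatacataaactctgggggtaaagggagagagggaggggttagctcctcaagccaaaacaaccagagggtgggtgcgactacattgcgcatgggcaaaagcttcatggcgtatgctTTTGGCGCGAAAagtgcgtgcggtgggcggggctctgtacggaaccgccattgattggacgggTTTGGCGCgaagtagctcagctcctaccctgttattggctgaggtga
Mcm5: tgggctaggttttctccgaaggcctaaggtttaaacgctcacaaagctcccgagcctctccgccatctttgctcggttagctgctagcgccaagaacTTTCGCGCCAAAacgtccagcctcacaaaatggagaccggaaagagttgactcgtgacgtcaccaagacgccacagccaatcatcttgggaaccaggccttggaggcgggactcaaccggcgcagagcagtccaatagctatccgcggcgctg
Pola1: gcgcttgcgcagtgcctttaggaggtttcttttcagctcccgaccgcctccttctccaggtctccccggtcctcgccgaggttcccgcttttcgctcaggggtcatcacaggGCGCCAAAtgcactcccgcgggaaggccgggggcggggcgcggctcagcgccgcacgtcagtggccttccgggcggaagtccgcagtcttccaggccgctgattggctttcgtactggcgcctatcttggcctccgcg
Mcmbp: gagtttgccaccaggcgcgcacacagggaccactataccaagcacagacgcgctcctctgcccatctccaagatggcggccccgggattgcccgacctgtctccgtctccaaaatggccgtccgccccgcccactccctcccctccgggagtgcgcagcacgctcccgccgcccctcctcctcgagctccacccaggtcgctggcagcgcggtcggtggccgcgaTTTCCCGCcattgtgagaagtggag
Orc3: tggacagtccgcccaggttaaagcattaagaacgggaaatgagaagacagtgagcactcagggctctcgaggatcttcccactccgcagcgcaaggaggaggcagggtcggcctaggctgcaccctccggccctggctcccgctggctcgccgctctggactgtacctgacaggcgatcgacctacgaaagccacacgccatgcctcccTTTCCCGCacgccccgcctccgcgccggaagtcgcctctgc
Prim1: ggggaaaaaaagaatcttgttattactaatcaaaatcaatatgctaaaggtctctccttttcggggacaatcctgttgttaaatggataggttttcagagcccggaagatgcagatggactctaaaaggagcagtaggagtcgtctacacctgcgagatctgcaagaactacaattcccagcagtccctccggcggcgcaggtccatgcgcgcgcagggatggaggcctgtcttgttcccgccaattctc
The median of the mean log2 ratio in Axin2+ over Axin2- cells was 0.72 for the 17 members with an E2F-type match and 0.57 for the 22 without. In Rspo3 KO over control the medians, of the mean of the 2 pairs, were -0.63 and -0.33. This split was not made for each pair, and the pairs differed over all members, with medians of -0.61 and -0.17.

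The labels were checked against genes that mark the groups. In the sort, Axin2 itself had log2 ratios of 1.35 and 1.30 in Axin2+ over Axin2- cells, the stem cell gene Lgr5 a mean of 1.53, and the proliferation gene Mki67 1.96 and 2.12. In the KO, the ratios of Lgr5 were -1.28 in the first pair and -2.61 in the second (limma adjusted p = 0.0993), with the KO channel not well above background on either array. Rspo3 had 1 probe above background, on the second array only, where its log2 ratio was 0.17, so the arrays do not show the loss of Rspo3. Mki67 had log2 ratios of -0.97 in the first pair and 0.27 in the second. Between 53.1% and 60.3% of the 43379 gene spots stood above background in a channel, and the number of arrays limits how precise any value is.

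The comparison of Axin2+ with Axin2- cells asks how the Wnt-responsive cells of the crypt differ from the other epithelial cells. Over the 47 genes the median log2 ratio was 0.58 on the first array and 0.61 on the second, against 0.02 and -0.03 for all genes. Higher on both arrays were 44 of 47 (93.6%), against 41.1% of all genes, and none was lower on both, against 41.7%. Past 1.5-fold, with the same sign on both arrays, were 23 higher (48.9%, against 7.86% of all genes) and 0 lower (against 6.92%). Orc3, Gins3 and Pola2 differed in sign between the arrays. These counts rest on the loess normalisation. With each array centred on its median instead, 5 members were higher on both arrays and 2 were past 1.5-fold, while the median of the mean ratio was 0.52. The members' medians on the first and second array were then 1.57 and -0.40, although both arrays carried the same RNA with the dyes exchanged. The median absolute difference between the arrays was 0.13 log2 units for the members, which covers hybridisation and dye but not differences between mice.

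**Figure D1:**
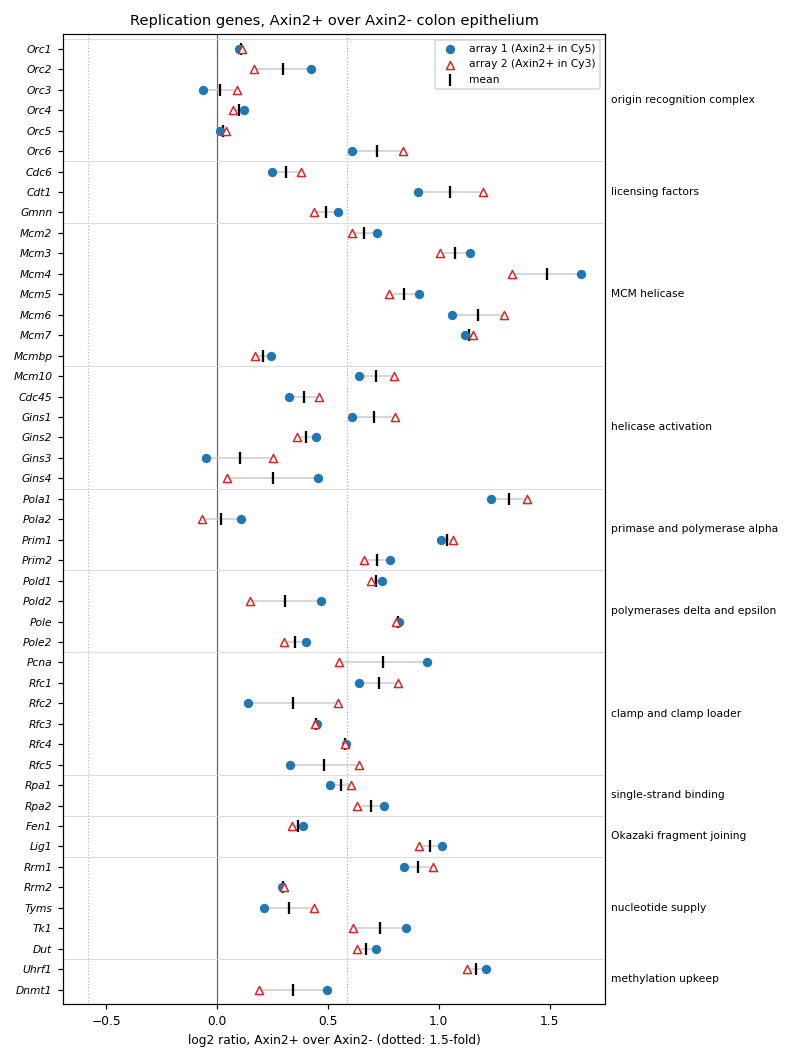
Log2 ratio of Axin2+ over Axin2- cells (x axis) for each of the 47 genes (y axis, grouped by role) on array 1 (filled circles) and array 2 (open triangles), with the mean as a bar and 1.5-fold as dotted lines. The arrays lie close together, 44 genes are right of 0 on both, and 5 of the 6 origin recognition genes sit left of the 1.5-fold line.

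The MCM genes, which encode the replicative helicase and its binding protein, had the highest class median in Axin2+ cells, at a log2 ratio of 1.07. Mcm4 led all members with log2 ratios of 1.64 and 1.33, from a normalised signal of 3629 in Axin2+ against 1164 in Axin2- cells on the first array and 3395 against 1349 on the second. Mcm6 had log2 ratios of 1.06 and 1.29, Mcm7 1.12 and 1.16, Mcm3 1.14 and 1.01, Mcm5 0.91 and 0.77, and Mcm2 0.72 and 0.61. By their brightest probes, the 6 subunits of the hexamer were therefore all past 1.5-fold, with means from 0.66 to 1.49. The other Mcm3 probe, also above background, gave 0.62 and 0.42, a mean under 1.5-fold. Mcmbp, whose protein binds MCM subunits, was at 0.24 and 0.17.

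The origin recognition complex stood apart from the helicase it loads, with a class median of 0.10 in the sort. Orc6, the smallest and most loosely bound subunit, was past 1.5-fold, with log2 ratios of 0.61 and 0.84. Orc2 was at 0.42 and 0.17, Orc1 at 0.10 and 0.11, Orc4 at 0.12 and 0.07, Orc5 at 0.01 and 0.04, and Orc3 at -0.06 and 0.09. In Axin2+ cells Orc1 read 269 and 253 and Orc5 211 and 241, against 1321 and 982 for Mcm2. Orc4 was brighter, at 628 and 631. The part of low signal in these ratios was not tested. In signal, Orc3 read 660 in Axin2+ against 689 in Axin2- cells on the first array and 649 against 611 on the second, so its groups overlapped. Its 2 other probes gave 0.16 and 0.09, and 0.04 and 0.08, and of the further Orc4 probes 1 gave -0.07 and 0.21.

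Among the licensing factors, Cdt1, which brings the MCM complex to the origin, had log2 ratios of 0.91 and 1.20, a mean 2.07-fold. Its inhibitor Gmnn (geminin) was at 0.54 and 0.44, and Cdc6 at 0.25 and 0.38. Of the genes that activate the helicase, Mcm10 (0.64 and 0.80) and Gins1 (0.61 and 0.80) were past 1.5-fold. The other Gins1 probe gave 0.52 and 0.62, a mean just under 1.5-fold. Cdc45 was at 0.32 and 0.46 and Gins2 at 0.44 and 0.36. The remaining GINS subunits were nearer 0, with Gins4 at 0.46 and 0.05 and Gins3 at -0.05 and 0.25. Signals in Axin2+ cells were low for Cdc6 (165 and 158), Cdc45 (202 and 196) and Gins3 (140 and 150).

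The primase and polymerase alpha genes, whose proteins form 1 complex that starts each new strand, were uneven. The catalytic subunit Pola1 had log2 ratios of 1.23 and 1.40, with a signal of 1003 against 426 on the first array and 1022 against 387 on the second. The primase subunits Prim1 (1.01 and 1.06) and Prim2 (0.78 and 0.66) were also past 1.5-fold. Pola2, the accessory subunit, was at 0.11 and -0.07, with signals of 125 and 131 in Axin2+ against 116 and 138 in Axin2- cells. These signals are near the floor: 1 Pola2 probe that was not above background read 84 and 69 in Axin2+ cells. Among the leading and lagging strand polymerases, the catalytic subunits Pold1 (0.74 and 0.69) and Pole (0.82 and 0.81) were past 1.5-fold. The accessory subunits Pold2 (0.47 and 0.15) and Pole2 (0.40 and 0.30) were not. In Axin2+ cells Pole2 read 243 and 238, and Pold2 1131 and 1037.

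Pcna, the sliding clamp, had log2 ratios of 0.95 and 0.55. Of the clamp loader, the large subunit Rfc1 was past 1.5-fold (0.64 and 0.82), Rfc4 lay just under the threshold with 0.58 on each array, and Rfc5 (0.33 and 0.64), Rfc3 (0.45 and 0.44) and Rfc2 (0.14 and 0.54) were lower. Rpa2, a subunit of the protein that coats single-stranded DNA, was at 0.75 and 0.63, and Rpa1 at 0.51 and 0.61. Lig1, the ligase that joins Okazaki fragments, was at 1.01 and 0.91, against 0.39 and 0.34 for the flap nuclease gene Fen1.

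For nucleotide supply, Rrm1, the large subunit of ribonucleotide reductase, had log2 ratios of 0.84 and 0.97, whereas its S phase partner Rrm2 had 0.29 and 0.30. Thymidine kinase Tk1 (0.85 and 0.61) and the dUTPase gene Dut (0.72 and 0.63) were past 1.5-fold. Tyms, the thymidylate synthase, was at 0.21 and 0.44. Of the genes that copy DNA methylation onto the new strand, Uhrf1 was among the highest members with 1.21 and 1.13, and the methyltransferase Dnmt1 was at 0.50 and 0.19.

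Differentiation markers moved the other way in the same sort. Of 7 surface enterocyte markers, all measured, 6 were lower in Axin2+ cells past 1.5-fold (against 6.92% of all genes), with a median log2 ratio of -2.63. The 7 epithelial markers had a median of 0.03, with Krt8 (-0.64 and -1.03) and Krt19 (-0.58 and -0.77) lower past 1.5-fold. The part of surface cells in the ratios of the replication genes was not tested.

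In the Rspo3 KO, the question is which genes of the colon depend on stromal Rspo3. Of the 47 genes, 40 were lower than control in the first pair (against 50.3% of all genes) and 31 in the second (against 53.3%). They were lower in both pairs in 27 cases (57.4%, against 23.9% of all genes) and higher in both in 3 (6.38%, against 20.3%), namely Orc1, Orc4 and Gins4. The other 17 differed in sign between the pairs, 13 of them lower in the first pair alone. Past 1.5-fold with the same sign in both pairs, 12 genes were lower (25.5%, against 2.46% of all genes) and 0 higher (against 1.85%). With median centring, 7 were past 1.5-fold lower, and the medians of the pairs were 0.10 and -0.78. All these figures describe 2 pairs of colon RNA, in which fewer cells of a type and less RNA per cell cannot be told apart.

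By limma with Benjamini-Hochberg adjustment over all 15376 genes, 1 member passed an adjusted p of 0.05 (2.13%, against 0.241% of all genes, or 37 in either direction). At an unadjusted p under 0.05, 11 members were lower (23.4%, against 2.69% of all genes) and 0 higher. The next smallest adjusted p among the members was 0.140, for Mcmbp. Standard errors of the mean log2 ratio ran from 0.23 to 0.34.

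**Figure D2:**
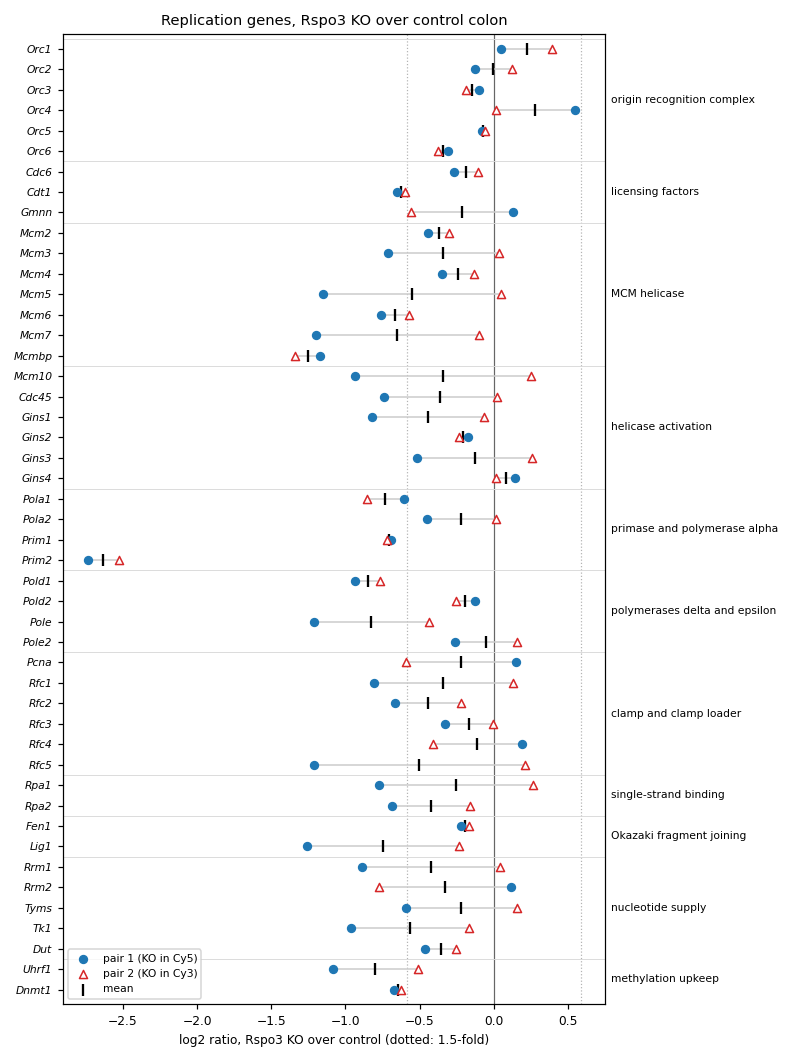
Log2 ratio of Rspo3 KO over control colon (x axis) for each of the 47 genes (y axis, grouped by role) in pair 1 (filled circles) and pair 2 (open triangles), with the mean as a bar and 1.5-fold as dotted lines. Prim2 lies far left in both pairs, and for many genes pair 1 is well left of pair 2.

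The 2 pairs gave different pictures of the class as a whole. Past 1.5-fold lower were 25 members in the first pair (against 7.47% of all genes) and 9 in the second (against 5.63%). In each pair by itself 7 were past it (against 1.16%): Prim2, Mcmbp, Pold1, Pola1, Prim1, Cdt1 and Dnmt1. The median absolute difference between pairs was 0.44 log2 units over the members and 0.35 over all genes. Across the 47 genes the ratios of the 2 pairs had Pearson's r of 0.45 and Spearman's rho of 0.03, and across all genes -0.12 by Spearman's rho, as a description over genes on the same arrays. KO RNA was in Cy5 in the first pair and in Cy3 in the second, so that a dye effect and a difference between pairs cannot be told apart. In the Axin2 arrays, where the same RNA carried both dyes, the dye part of a member's ratio lay between -0.20 and 0.20. After subtracting it gene by gene, the KO medians were -0.51 and -0.14.

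Prim2 fell in both pairs. Its probe gave a normalised signal of 183 in the KO against 1218 in the control of the first pair, and 179 against 1030 in the second. Both KO mice were thus far below both controls. The log2 ratios were -2.74 and -2.52, with a mean of -2.63 ± 0.15 (SD, n = 2) and an adjusted p of 0.00803 in limma. The gene has 1 probe on the array (mm9 chr1:33510733-33510792), so that no other probe bears on this value. Over the 11 alternatives tried in limma its adjusted p ran from 9.81e-06 to 0.903, and 8 kept it under 0.05. The 0.903 came with all spots in the background fit, where the mean was -1.87. Leaving flagged spots out of that fit was a choice made with the data seen. The 8 alternatives under 0.05 include the series' table, which repeats the software's log ratios, and the looser cut-off of 0.1, which leaves the p unchanged.

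**Figure D3:**
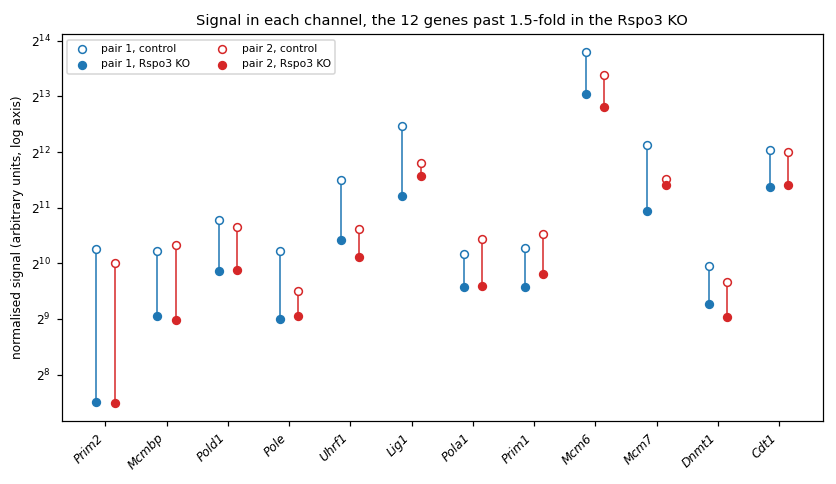
Normalised signal (y axis, arbitrary units, log axis) in the control (open) and the Rspo3 KO (filled) channel of pair 1 (blue) and pair 2 (red) for the 12 genes past 1.5-fold, ordered by mean ratio. Prim2 drops from 1218 to 183 and from 1030 to 179, whereas Mcm7 and Lig1 differ mainly in pair 1.

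Of the other genes of the primase and polymerase alpha complex, Prim1 and Pola1 were lower in both pairs, and none of the 3 passed the test. Prim1, the catalytic primase subunit, had log2 ratios of -0.69 and -0.72, with signals of 765 against 1237 and 896 against 1479. Pola1 had -0.61 and -0.85, with signals of 758 against 1155 and 767 against 1387. For each gene both KO values lay below both control values. Limma gave adjusted p of 0.705 and 0.683, on mean differences of 1.63-fold and 1.66-fold. Pola2 differed in sign, at -0.45 and 0.02, with low signals of 100 against 137 and 123 against 122.

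Mcmbp was the next lowest member, at -1.17 and -1.34, with signals of 528 against 1191 and 507 against 1282 (mean -1.26 ± 0.12, SD, n = 2, limma adjusted p = 0.140). This value is of 1 probe (mm9 chr7:135841551-135841610). The 3 other Mcmbp probes, all above background, gave log2 ratios of -0.48 and -0.27, 0.68 and -0.38, and 0.27 and 0.08 in the 2 pairs. The probes of this gene therefore disagreed, and the mean over them was -0.33.

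Within the helicase itself, Mcm6 was lower in both pairs, at -0.76 and -0.57, with signals of 8406 against 14256 and 7186 against 10677. Mcm7, at -1.20 and -0.10, passed 1.5-fold on its mean through the first pair, where the signal was 1953 against 4490, while in the second it was 2730 against 2923. Mcm5 (-1.15 and 0.04) and Mcm3 (-0.71 and 0.03) were lower in the first pair and near 0 in the second, while the second probe of Mcm3 gave -0.39 and -0.05. Mcm2 was at -0.44 and -0.30. Mcm4, which led the members in Axin2+ cells, was at -0.35 and -0.13.

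Of the polymerases, Pold1, the catalytic subunit of polymerase delta, was lower by 2 probes. Its brightest probe had -0.93 and -0.77 (signals of 925 against 1767 and 945 against 1609, limma adjusted p = 0.476), and its other probe -1.20 and -0.75. Pole, the catalytic subunit of polymerase epsilon, was at -1.21 and -0.44, with signals of 513 against 1190 and 533 against 722. Its second probe was not above background. Pold2 was at -0.13 and -0.26 and Pole2 at -0.26 and 0.16.

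Cdt1 had nearly equal values in the pairs, at -0.65 and -0.60, with signals of 2662 against 4180 and 2705 against 4101 (limma adjusted p = 0.860). Gmnn was at 0.13 and -0.56 and Cdc6 at -0.27 and -0.11, with -0.20 and 0.05 by its other probe. The origin recognition genes lay around 0, with a class median of -0.04 and means from -0.34 for Orc6 to 0.28 for Orc4. Orc1 was at 0.05 and 0.39 and Orc4 at 0.55 and 0.01. Orc2 (-0.13 and 0.12), Orc3 (-0.10 and -0.19) and Orc5 (-0.08 and -0.06) were nearer 0, and the values of Orc6 were -0.31 and -0.38. Signals in the KO channel were low for Orc1 (142 and 165) and Orc5 (120 and 128). Other above-background probes of Orc4 (0.40 and 0.20, 0.49 and 0.12) had the same sign as its brightest.

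The helicase activation genes differed by pair. Mcm10 (-0.94 and 0.25), Cdc45 (-0.74 and 0.02) and Gins3 (-0.52 and 0.26) were lower in the first pair and higher in the second. Gins1 was at -0.82 and -0.06, but its other probe gave -0.46 and 0.20. Gins2 (-0.17 and -0.24) and Gins4 (0.15 and 0.02) were close to 0 in both.

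The clamp and its loader behaved unevenly between pairs as well. Pcna (0.15 and -0.59) and Rfc4 (0.19 and -0.41) were lower in the second pair alone, as were Gmnn and Rrm2. Rfc5 (-1.21 and 0.21) and Rfc1 (-0.81 and 0.13) were lower in the first alone. Rfc2 was at -0.67 and -0.22, with -0.51 and -0.40 by its other probe, and Rfc3 at -0.33 and -0.01.

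For single-strand binding, Rpa1 was at -0.77 and 0.26 and Rpa2 at -0.69 and -0.16. Lig1 was at -1.26 and -0.23, with signals of 2357 against 5644 and 3051 against 3583, so that most of its difference came from the first pair. Fen1 was at -0.22 and -0.17.

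No nucleotide supply gene was past 1.5-fold with the same sign in both pairs. Tk1 (-0.96 and -0.17) and Dut (-0.47 and -0.25) were lower in both. Rrm1 (-0.89 and 0.04) and Tyms (-0.59 and 0.15) were lower in the first alone, and Rrm2 (0.12 and -0.77) in the second alone. Both methylation genes were past 1.5-fold: Uhrf1, which recognises hemimethylated DNA, at -1.08 and -0.51 (signals of 1361 against 2886 and 1101 against 1572) and Dnmt1 at -0.67 and -0.62 (617 against 985 and 526 against 811). A second probe of Uhrf1 gave -0.80 and -0.50.

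Marker transcripts of other cells were read in the same colon RNA. Of 10 B cell markers, 7 were measured and all 7 were lower in both pairs (against 23.9% of all genes). Their median log2 ratio was -0.83 in the first pair and -0.58 in the second, and Ighm and Ms4a1 passed the test in limma (adjusted p = 0.0249 and 0.0128). Of 8 T cell markers, 6 were measured and 5 were lower in both pairs (median -0.40), against the same 23.9% of all genes. No T cell, macrophage, fibroblast or smooth muscle marker passed the test. The 8 macrophage markers had a median of 0.24, the 6 fibroblast markers 0.30 and the 5 measured smooth muscle markers 0.24. The 5 measured epithelial markers had a median of -0.01, with Cdx2 higher (2.33 and 1.91, limma adjusted p = 0.0198), and the 4 measured surface enterocyte markers were at 0.67 in the first pair and -0.32 in the second. The part of these cells in the ratios of the replication genes was not tested.

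Lists of neighbouring genes were read the same way. The 33 other factors of the fork and the origin had a median log2 ratio of -0.21 in the KO. In both pairs 18 were lower (against 23.9% of all genes) and 0 higher (against 20.3%), and none passed the limma test. Dscc1, which helps load the clamp for cohesion (-1.08 and -0.76), and Chaf1b, a chromatin assembly subunit (-1.20 and -0.08), were past 1.5-fold lower (against 2.46% of all genes). In Axin2+ cells the list had a median of 0.43, with 29 higher on both arrays (against 41.1% of all genes). Past 1.5-fold higher were 11 (against 7.86%), led by Top2a at 1.15 and 1.16.

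The 30 other nucleotide synthesis genes were near 0 in the KO, at -0.05. In both pairs 7 were lower (against 23.9% of all genes) and 6 higher (against 20.3%), which is close to those shares, and 0 were past 1.5-fold. In Axin2+ cells 29 of them were measured, with a median of 0.33. Ctps, Impdh2, Mthfd1 and Paics were past 1.5-fold higher there (against 7.86% of all genes). Samhd1, which breaks down dNTPs, was lower at -1.12 and -1.08, as was Cmpk1 at -0.83 and -0.73.

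Of 18 E2F, pocket protein and S phase cyclin genes, 17 were measured in the KO, with a median of 0.04. E2f1 (-0.64 and -0.55) and E2f7 (-0.79 and -0.50) were past 1.5-fold lower (against 2.46% of all genes), and none of the 17 passed the limma test. In the sort all 18 were measured, with a median of 0.21 and Ccna2 past 1.5-fold at 0.99 and 0.75 (against 7.86% of all genes past it).

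Set side by side, the experiments ordered the 47 genes in partly opposite ways. Of the 12 genes past 1.5-fold lower in the KO, 10 were past 1.5-fold higher in Axin2+ cells, which is 83.3% of the 12 and 43.5% of the 23 higher in the sort. Over all 47 members the share past 1.5-fold higher in the sort was already 48.9%. Among all 343 genes past 1.5-fold lower in the KO and measured in both experiments, 80 (23.3%) were past 1.5-fold higher in Axin2+ cells. Dnmt1 and Mcmbp were the exceptions among the 12. With median centring the members' overlap was 0, at member medians of 1.57 and -0.40 on the 2 Axin2 arrays. The overlap itself, under either normalisation, was counted after the values were seen. Over the 47 genes the mean log2 ratios of the 2 experiments had Pearson's r of -0.39 and Spearman's rho of -0.65, and r of -0.53 without Prim2. The points share their probes, and so their signal range, in both experiments, and no test was made. Orc4, Orc1 and Gins4, higher in both KO pairs, had mean ratios of 0.10, 0.11 and 0.25 in the sort, but Orc3 and Orc5, nearest 0 there with Pola2, were lower in both KO pairs. Mcm4 and Mcm3, among the highest in the sort, had KO means of -0.24 and -0.34.

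**Figure D4:**
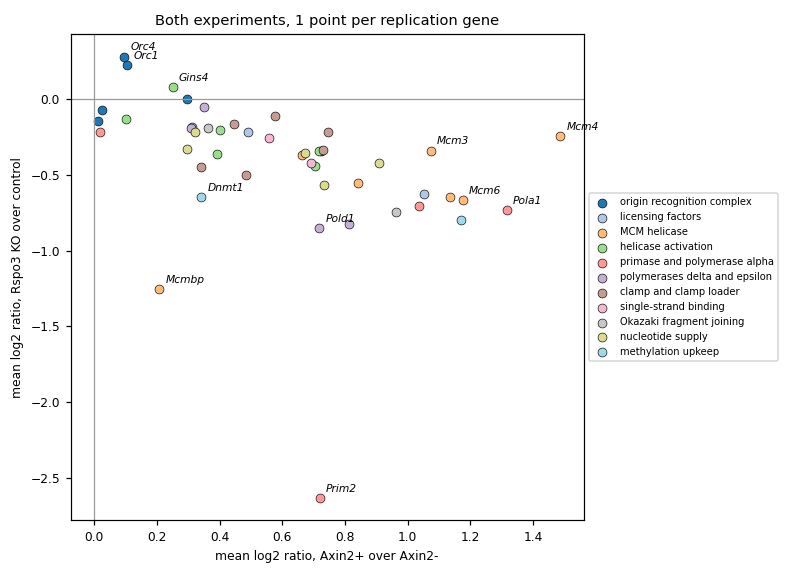
Mean log2 ratio of Axin2+ over Axin2- cells (x axis) against the mean log2 ratio of Rspo3 KO over control colon (y axis), 1 point per gene, colored by role. Points run from Orc4 at the upper left to Pola1 at the lower right, with Prim2 and Mcmbp below the rest.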

How the data were processed

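Data were used as deposited: 2 arrays of Rspo3 KO against control colon and 2 of sorted Axin2+ against Axin2- cells, grouped by their labels. The authors scanned the arrays and ran Feature Extraction 11.5.1.1, and deposited, spot by spot, mean and background intensity in either dye and a log10 ratio of Cy5 over Cy3. The authors deposited the same log10 ratio in the series' table of values. The p-value deposited with each ratio was not used. The authors' error-weighted combination of ratio profiles was not repeated. Labels and methods differ on the RNA extraction and on whether colon or distal colon was taken. The paper's methods for gene set enrichment speak of isolated epithelium for the KO comparison.

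The background was corrected with limma 3.58.1 (R 4.3.3) by normexp with an offset of 50, fitted without spots flagged as background outliers (66 and 6 on the KO arrays, a choice made with the data seen), and ratios were normalised by loess within arrays and turned to KO over control and Axin2+ over Axin2-. Control and outlier spots had weight 0. The normalised signal is each channel's intensity after these steps and a further quantile normalisation of average intensity across the arrays of both experiments. That further step was not used for the ratios. Spots of a probe were averaged. Of 41174 probes, 27761 were named by accession, 5531 by symbol and 460 by synonym through RefSeq, and 7422 kept the file's name. KO ratios were tested against 0 by lmFit and eBayes with Benjamini-Hochberg adjustment over all genes. With 1 residual degree of freedom the spread is borrowed from all genes (prior degrees of freedom 6.76), and in a run on simulated data the share of false calls came out above its nominal level. Past 1.5-fold means that the mean ratio passed 1.5-fold with the same sign on both arrays, which is the study's threshold.

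Members, lists (other fork and origin factors, other nucleotide synthesis genes, E2F and S phase genes, and B cell, T cell, macrophage, fibroblast, smooth muscle, epithelial and surface enterocyte markers) and tests were chosen with earlier results of these data known. Every member was named, with each experiment's values, and further above-background probes where their sign differed. Probes not above background were not given in this way. Probe positions are those of the files (mm9). No annotation of that build was used, so the exon is not given. Alternatives to the background correction, normalisation, filter, choice of probe, thresholds and arrays were computed, with their effect given at the end.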

Additional observations from a re-analysis of the deposited data

How the results depend on the processing

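Over 58 recomputed values of the 5 summaries (calls, genes past 1.5-fold and medians), 44 held and 14 moved. A count moved if it changed by over 1.5 times and a median if it changed by over the SD between the pairs or arrays. The 58 include those of the series' table, which repeat those of the software's log ratios. The count of members called in the KO, 1 here, was 2 with an offset of 16 (Mcmbp added), 3 in a fit of 4 arrays with a dye term (Mcmbp and Pold1 added), and 0 with all spots in the background fit, with median centring or without a filter on dim probes, where Prim2 had limma adjusted p of 0.903, 0.161 and 0.354 and means of -1.87, -2.57 and -2.63. Over all genes the same settings gave between 0 and 208 calls, against 37: 129 with the software's log ratios or the series' table, 128 with an offset of 16, 70 without background correction, 65 at an adjusted p under 0.1, 43 with both channels above background, 8 with median centring, 5 with the mean over probes and 1 with all spots in the background fit. With median centring in place of loess, the KO count past 1.5-fold was 7, the KO medians of the pairs were 0.10 and -0.78, the Axin2 count was 2, its median 0.52, and 5 members were higher on both Axin2 arrays, where the medians of the 2 arrays were 1.57 and -0.40. The Axin2 median was 0.75 with the software's log ratios or the series' table. At 2-fold the counts were 2 in the KO and 8 in Axin2+ cells. Without 1 pair, the KO count lay between 9 and 25 and the KO median between -0.61 (first pair alone) and -0.17. Without 1 Axin2 array the count lay between 23 and 24 and the median between 0.58 and 0.61. The limma test is of ratios within pairs of mice. No paired analysis was possible between the KO and Axin2 experiments because different mice and cells were used.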
